A study of Mus musculus with 6 samples.

Results

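The respiratory chain subunits described here are the nuclear genes for the proteins of mitochondrial complexes I to V, measured in immortalized murine embryonic fibroblasts (MEF). They were taken from the array by name: every non-control probe whose gene symbol began with Ndufa, Ndufb, Ndufc, Ndufs or Ndufv and a number, was 1 of Sdha to Sdhd, or began with Uqcr, Cox4 to Cox8 or Atp5, leaving out the Ndufaf assembly factors. This gave 85 genes on 128 probes (137 spots) of the 34797 names and 55681 probes measured. By complex they comprised 37 genes of complex I, 4 of complex II, 8 of complex III, 18 of complex IV and 17 of complex V. The remaining name, Cox4nb, is listed by RefSeq as Emc8 and is not a subunit of any of these complexes, while Atp5s and Atp5sl are listed there as Dmac2l and Dmac2.

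RNA of 3 lines was hybridized to 6 one-colour arrays, 2 per group: wild type (WT) MEF labelled as strain W4, MEF knocked out for TIA1 (TIA1 KO) labelled BALB/c and MEF knocked out for TIAR (TIAR KO) labelled C57BL/6. TIA1 and TIAR (gene Tial1) are related RNA-binding proteins that act on splicing, mRNA stability and translation. Genotype, strain label and cell line cannot be told apart, and both arrays of TIA1 KO came from a different slide row than the rest, so that slide row and TIA1 loss cannot be told apart either. The study describes the 2 samples of a group as different biological samples, without saying whether they came from separate derivations of a line, so p-values measure the spread between these samples.

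In the TIAR KO arrays the second probe of Tial1 read 10.00 and 9.65 on the log2 scale against 11.71 and 11.09 in WT, a change of -1.58 (limma adjusted p = 0.0248). The brightest Tial1 probe read 9.57 and 11.60 in TIAR KO against 13.22 in WT replicate 2, its WT replicate 1 spot having been left out as an outlier, and the change did not pass the test (adjusted p = 0.196). The brightest Tia1 probe read 7.84 and 8.45 in TIA1 KO against 10.72 and 8.54 in WT (log2 change -1.49, adjusted p = 0.283). The TIAR KO label was thus borne out by 1 Tial1 probe, and the Tia1 probes did not separate the TIA1 KO arrays from WT beyond the spread between arrays. Of 10 fibroblast markers, 8 were well above background on all 6 arrays, among them Vim (17.24 and 17.49 in WT). Thy1 and Pdgfra were the exceptions. Pdgfra, a receptor for platelet-derived growth factor, was not well above background on either WT array and reached 10.05 and 10.22 in TIA1 KO and 11.68 and 11.51 in TIAR KO.

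The respiratory chain sits in the inner mitochondrial membrane. Complex I (NADH dehydrogenase) and complex II (succinate dehydrogenase) pass electrons to coenzyme Q, complex III (the cytochrome bc1 complex) passes them on to cytochrome c, and complex IV (cytochrome c oxidase) passes them to oxygen. Complexes I, III and IV pump protons, and complex V (ATP synthase) uses the resulting gradient to make ATP. All but complex II also hold subunits encoded by mitochondrial DNA, and several complex IV subunits have isoforms that are typical of muscle, testis or low oxygen.

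Few respiratory chain genes were called between the 3 lines, in values aligned to a common distribution and with 2 arrays a group. In TIA1 KO 1 of 85 genes was called, the muscle isoform Cox6a2, which was lower and close to background. In TIAR KO 3 genes were called, and all were higher: Ndufv2 and Ndufv3, which belong to the NADH-binding part of complex I, and Cox7a1, the heart and muscle isoform of a complex IV subunit. No subunit of complex II, III or V was called in either comparison with WT when each gene was read from its brightest probe. Called means a Benjamini-Hochberg adjusted p under 0.05 over all probes in limma, fitted to the 4 arrays of the groups compared, together with a fold change above 2. In bulk RNA, fewer cells with a transcript and less of it per cell cannot be told apart.

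These counts were set beside those over the whole array. Over the brightest probe of each name, 2.88% were called higher and 1.61% lower in TIA1 KO, and none of the 85 genes was higher and 1 was lower. In TIAR KO 4.37% of the names were called higher and 2.84% lower, and 3 of the 85 genes were higher and none lower. Between the knockouts, 2.03% of the names were called higher in TIAR KO than in TIA1 KO and 2.11% lower, and 2 of the 85 genes, Cox7a1 and Ndufv2, were higher. Counted by probe, 1 of 128 member probes was called in TIA1 KO against 3.52% of all probes, 5 in TIAR KO against 5.78%, and 3 between the knockouts against 3.31%. At an unadjusted p under 0.05, limma marked 8 of the 85 genes in TIA1 KO, where it marked 29.4% of all names, and 17 in TIAR KO, where it marked 23.1%. Well above background on all 6 arrays were 76 of the 85 genes and 11063 of the 34797 names. These shares therefore compare genes of unlike signal.

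Most of the genes gave strong signals. On all 6 arrays 76 of the 85 were well above background, as the scanner software rates each spot. The other 9 were Ndufa4l2, Atp5s and the complex IV isoforms Cox4i2, Cox6a2, Cox6b2, Cox7a1, Cox7b2, Cox8b and Cox8c. For the 76 genes the median log2 fold change was -0.09 in TIA1 KO and -0.03 in TIAR KO. Over all 11063 names well above background on all 6 arrays the medians were -0.04 and -0.03. The 95% interval of the log2 fold change lay wholly within 2-fold for 56 of the 76 genes in TIA1 KO and for 46 in TIAR KO, so for the rest a change of 2-fold was not excluded by 2 arrays a group. In TIA1 KO 13 of the 76 genes were higher on both arrays than on both WT arrays (17.1%) and 26 lower (34.2%), where 29.8% and 35.8% of all names above background were. In TIAR KO 20 of 75 genes were higher on both arrays (26.7%) and 23 lower (30.7%), where 30.5% and 33.2% of all such names were.

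**Figure D1:**
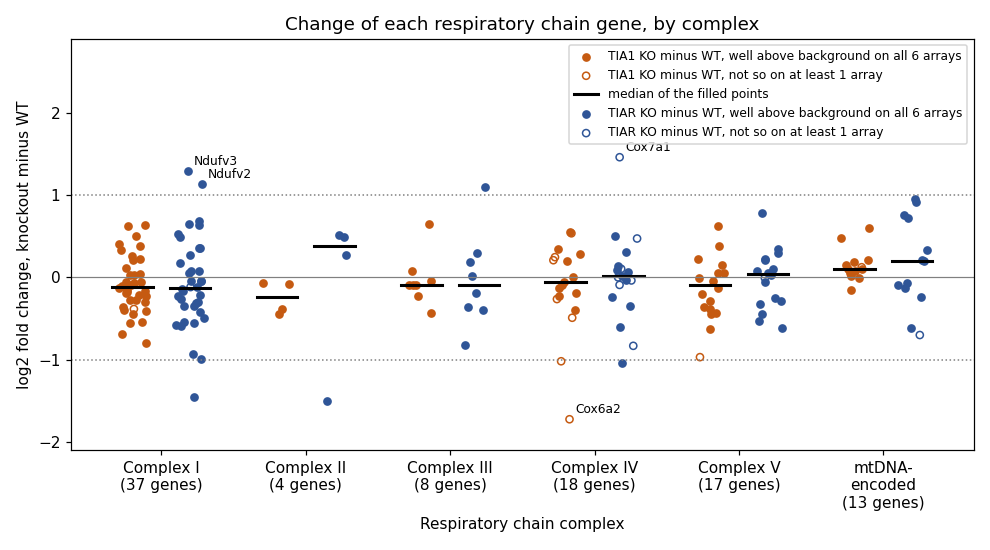
Log2 fold change (y axis) of each respiratory chain gene against WT, by complex and for the 13 mitochondrial DNA-encoded genes (x axis), in TIA1 KO (orange) and TIAR KO (blue). Points are genes read from their brightest probe, filled where well above background on all 6 arrays, bars are medians of the filled points, dotted lines mark 2-fold and names mark called genes. The medians of all complexes lie between -0.23 and 0.39, and 1 gene in TIA1 KO and 3 in TIAR KO are named.

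Without 1 array at a time the medians of complexes III and V in TIA1 KO and of complexes II to V in TIAR KO took either sign. The medians hold for values aligned by loess and quantile normalization, which gives all arrays the same distribution. Scaled only to a common array median, the median over all probes moved to -0.67 in TIA1 KO, that of the 76 genes to -1.65 and that of all names above background to -1.54. Under that scaling 71 of the 85 genes were called lower in TIA1 KO, where 30.2% of all names were, and 4 in TIAR KO, where 5.87% were. Under every scaling tried the 76 genes stayed within 0.11 of the median of all names above background in TIA1 KO, and the TIA1 KO arrays also had the brightest unnormalized background, with negative controls at a median intensity of 196 and 119 against 112 and 103 in WT. The part of that background in the result was not tested.

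**Figure D2:**
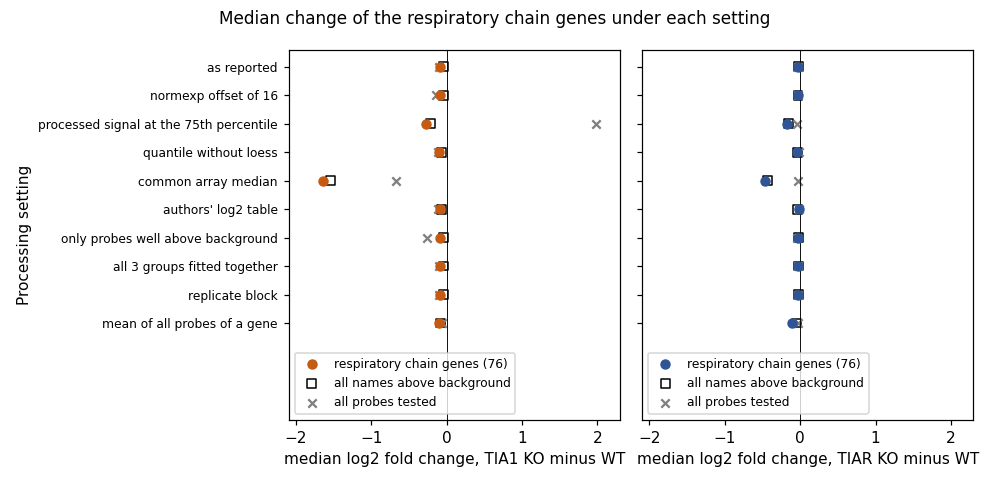
Median log2 fold change (x axis) of the 76 respiratory chain genes (filled circles), of all names well above background on all 6 arrays (open squares) and of all probes tested (crosses) under each processing setting (y axis), for TIA1 KO (left) and TIAR KO (right). With a common array median the 76 genes and all names above background move together to -1.65 and -1.54 in TIA1 KO.

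Complex I is the entry point for electrons from NADH, and its subunits fall into a part that binds NADH and holds the flavin (Ndufv1, Ndufv2, Ndufv3, Ndufs1, with Ndufs4, Ndufs6, Ndufa2 and Ndufa12), a part that hands electrons to coenzyme Q, and a membrane arm of many small accessory subunits. Of its 37 genes 36 were well above background on all arrays, with a median change of -0.12 in TIA1 KO and -0.13 in TIAR KO. In TIA1 KO none was called, and changes ran from -0.79 to 0.64. In TIAR KO 2 were called higher and none lower, and changes ran from -1.46 to 1.29. The 95% interval lay within 2-fold for 29 of the 36 genes in TIA1 KO and 21 in TIAR KO.

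The first 30 bases of the probes that read Ndufv2 and Ndufv3 are given because the complex I result rests on them; the Ndufv2 probe lies at chr17:66428794-66428853 on the minus strand, and the 3 Ndufv3 probes start at positions 31668209, 31665148 and 31663758 of the plus strand of chromosome 17 (mm9, positions as in the array files).
Ndufv2: gtgtgcaagcaggcctttaacttgtattca
Ndufv3, brightest probe: ggtagaccccgatgttggttcccatgaatc
Ndufv3, second probe: gtgccagaaggaggctcccaggtccaggag
Ndufv3, last probe: aagaaaagctattgccactccctccgtcct

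Ndufv2, a subunit with an iron-sulphur cluster beside the flavin, read 13.86 and 14.13 in WT, 13.75 and 13.64 in TIA1 KO and 15.16 and 15.09 in TIAR KO (log2 normalized intensity, replicates 1 and 2). The TIAR KO arrays lay above all others, and the TIA1 KO arrays just below WT. The rise in TIAR KO was 2.20-fold, with a log2 change of 1.13 ± 0.16 (SE, n = 2 arrays a group, limma adjusted p = 0.0165). In TIA1 KO the change was -0.30 (95% interval -0.78 to 0.18), and the direct comparison of TIAR KO with TIA1 KO gave 2.70-fold (adjusted p = 0.0308). The call against WT was lost without WT replicate 1 (log2 change 1.00, adjusted p = 0.0639), without TIAR KO replicate 1 (1.10, 0.0862) and without TIAR KO replicate 2 (1.17, 0.0792). It was also lost with the scanner's processed signal (0.81, 0.258) and with scaling to a common array median (0.67, 0.110).

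Ndufv3, an accessory subunit of the same part, was read by 3 probes. On the brightest, WT read 15.10 and 15.21, TIA1 KO 15.57 and 15.55, and TIAR KO 16.47 and 16.42. On the second, WT read 10.49 and 10.72, TIA1 KO 10.27 and 10.27, and TIAR KO 11.63 and 11.62. Both probes had their highest values in TIAR KO, with no overlap with the other groups. The rise in TIAR KO was 2.45-fold on the brightest probe (log2 change 1.29 ± 0.14 SE, adjusted p = 0.00719) and 2.03-fold on the second (1.02 ± 0.16, adjusted p = 0.0200). The third probe, which was well above background on 5 arrays, read 8.51 and 8.87 in TIAR KO and 8.48 and 8.58 in WT (change 0.16, adjusted p = 0.705). The call on the brightest probe was lost with the processed signal (0.98, adjusted p = 0.157), and it fell under 2-fold with a common array median (0.81) and with the mean of all probes (0.83). In TIA1 KO the first and second probes differed in sign (0.40 and -0.33) and neither passed the test.

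Ndufv1, the flavin- and NADH-binding partner of both, read 15.69 and 15.91 in WT, 16.27 and 16.35 in TIA1 KO and 16.02 and 16.14 in TIAR KO. Its change was 0.28 in TIAR KO (95% interval -0.12 to 0.68) and 0.51 in TIA1 KO (0.06 to 0.96), neither past the test over all probes. Ndufs1, the largest iron-sulphur subunit of this part, gave a change of -0.12 in TIAR KO (adjusted p = 0.736). Other subunits of the NADH-binding part, named here after their values had been seen, were not called higher. In TIAR KO Ndufs4 gave -0.13, Ndufa12 gave -0.34 and Ndufs6 gave 0.64 (adjusted p = 0.753, 0.788 and 0.0872), and Ndufa2 was lower by 1.90-fold (adjusted p = 0.0230).

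**Figure D3:**
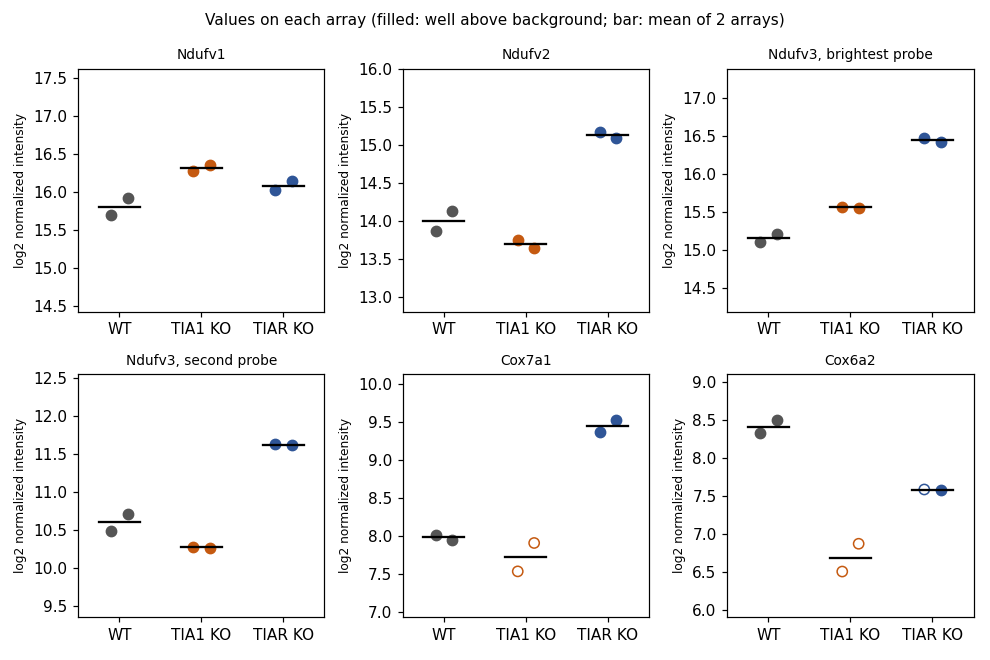
Log2 normalized intensity (y axis, each panel spanning 3.2 units) on each of the 6 arrays for Ndufv1, Ndufv2, 2 probes of Ndufv3, Cox7a1 and Cox6a2, by group (x axis). Filled points are well above background, open points are not, and bars are means of 2 arrays; Ndufv2, both Ndufv3 probes and Cox7a1 are highest on both TIAR KO arrays, and Cox6a2 is lowest on the TIA1 KO arrays.

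No other complex I gene was called against WT from its brightest probe. Ndufb7 gave -0.99 in TIAR KO (adjusted p = 0.204), with its arrays there 1.07 apart. Ndufc2, a membrane arm subunit, read 15.51 and 15.65 in WT, 15.27 and 15.47 in TIA1 KO, and 14.86 and 13.38 in TIAR KO (change -1.46, adjusted p = 0.163). Its TIAR KO arrays lay 1.48 apart, so that the size of the change rested on replicate 2. Ndufc1 read 15.77 and 14.91 in WT, 14.66 and 14.44 in TIA1 KO and 15.01 and 14.51 in TIAR KO, and Ndufb2 read 15.39 and 15.49, 14.53 and 14.98, and 15.46 and 15.59. In TIA1 KO their changes of -0.79 and -0.69 did not pass the test (adjusted p = 0.218 and 0.146). Ndufa2, of the NADH-binding part and singled out after its values were seen, fell just short of the fold limit: it read 16.85 and 17.01 in WT, 16.32 and 16.43 in TIA1 KO, and 15.97 and 16.03 in TIAR KO (1.90-fold lower, adjusted p = 0.0230). Ndufa4, which is now counted as a subunit of complex IV, showed changes of -0.28 and -0.42 in the knockouts (TIA1 KO first), with 15.37 and 15.28 in WT, 15.05 and 15.05 in TIA1 KO, and 14.61 and 15.21 in TIAR KO. Its hypoxia-associated relative Ndufa4l2 was well above background on 1 array, WT replicate 2, and read between 7.00 and 7.54 on all arrays.

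Complex II oxidizes succinate in the tricarboxylic acid cycle and is encoded by nuclear genes only. None of its 4 genes was called, with median changes of -0.23 in TIA1 KO and 0.39 in TIAR KO. Without WT replicate 2 these medians were -0.41 and -0.089, and with the processed signal that in TIAR KO was -0.021, so the sign in TIAR KO was not stable. Sdha, the flavoprotein, read 14.62 and 14.00 in WT, 14.22 and 13.50 in TIA1 KO, and 14.95 and 14.67 in TIAR KO. Sdhc, a membrane anchor, read 14.25 and 14.82, 14.30 and 13.99, and 15.05 and 15.06. Sdhb, the iron-sulphur subunit, read 15.55 and 14.26 in WT, 14.48 and 15.19 in TIA1 KO, and 15.18 on TIAR KO replicate 2 alone, its other spot having been left out as an outlier. All 3 were nominally higher in TIAR KO than in WT, by 0.28 to 0.52, and none passed the test. Sdhd, the other anchor, read 15.95 and 16.04 in WT, 15.78 and 16.04 in TIA1 KO, and 15.46 and 13.51 in TIAR KO (change -1.51, adjusted p = 0.261). Its TIAR KO arrays differed by 1.96, with both below the WT arrays. When all probes of a gene were averaged, the median of the complex in TIAR KO was 0.08.

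Gaps of this kind between replicate arrays were counted over the 76 genes above background. In TIA1 KO no gene differed by more than 1 log2 unit between its arrays, in WT 7 did and in TIAR KO 8 did. The WT genes were Atp5b, Cox5a, Ndufa12, Ndufa8, Sdhb, Uqcr10 and Uqcrc1, and the TIAR KO genes were Atp5g3, Cox6c, Ndufa6, Ndufb7, Ndufc2, Sdhd, Uqcrc1 and Uqcrq. The median gaps for WT, TIA1 KO and TIAR KO were 0.196, 0.128 and 0.196, against 0.196, 0.162 and 0.215 over all names above background. Without TIAR KO replicate 1, 4 genes were called lower in TIAR KO, among them Cox6c, Ndufc2 and Sdhd, where 2.73% of all names were.

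Complex III moves electrons from reduced coenzyme Q to cytochrome c. All of its 8 genes were well above background on every array, none was called from its brightest probe, and the median change was -0.09 in both knockouts. Uqcr10, a small accessory subunit, read 14.48 and 15.55 in WT, 15.67 and 15.66 in TIA1 KO, and 16.40 and 15.85 in TIAR KO (change 1.10, adjusted p = 0.20). Uqcrc1, a core protein, read 13.47 and 14.59, 14.24 and 13.65, and 12.58 and 13.84 (change -0.82 in TIAR KO, adjusted p = 0.496). Uqcrb read 15.50 and 15.94, 15.31 and 15.27, and 15.51 and 15.56 (change -0.43 in TIA1 KO, adjusted p = 0.252). For Uqcr10 and Uqcrc1 the WT arrays differed by more than 1 log2 unit, and the groups overlapped for Uqcrc1.

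In TIAR KO the probes of a complex III gene did not all give the same change. Uqcrh, the hinge protein that binds cytochrome c1, has 2 probes that overlap by 53 bases and differ by 1 base there, shown in capitals in windows of 30 bases at chr4:115739594-115739623 (mm9, minus strand, positions as in the array files for the brighter probe), where positions are counted from 1 at the 5′ end and the change from the brighter to the dimmer probe is G12A.
Uqcrh, brighter probe: ctcttctgtgtGactagcagtgacttcatc
Uqcrh, dimmer probe: ctcttctgtgtAactagcagtgacttcatc

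The brighter Uqcrh probe read 16.91 and 17.16 in WT, 16.74 and 16.88 in TIA1 KO, and 16.71 and 16.64 in TIAR KO, a change of -0.36 in TIAR KO (adjusted p = 0.303). The dimmer probe read 15.87 and 15.93, 15.51 and 15.30, and 14.22 and 14.41. It was called lower in TIAR KO, 3.01-fold (log2 change -1.59 ± 0.15 SE, adjusted p = 0.00436), and is the only member probe called lower there. In TIA1 KO it gave -0.50 (adjusted p = 0.152). Which of the 2 bases each line carries was not tested, and no genome of this build was used here.

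Overlapping probes of Uqcr10 disagreed without any base that differed in the overlap. The brightest and the second probe share the following 30 bases at chr11:4601991-4602020 (mm9, minus strand) within an overlap of 53 bases.
Uqcr10, both probes: gtttgagtacagctgtcagcaaataaatgc

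On the second Uqcr10 probe WT read 15.70 and 15.42, TIA1 KO 15.77 and 15.07, and TIAR KO 14.94 and 15.32, a change of -0.43 in TIAR KO where the brightest probe gave 1.10. The last Uqcr10 probe, which is in none of the overlapping pairs, gave 0.88 (adjusted p = 0.0826). Over the 16 pairs of member probes that overlapped by at least 30 bases with at most 3 differences, in 10 genes, the fold changes of a pair differed by a median of 0.14 in TIA1 KO and 0.58 in TIAR KO. Probes placed on chromosome 18 were left out of these pairs. In TIA1 KO 1 pair differed by more than 0.5, and in TIAR KO 9 pairs in 6 genes did. Several pairs share a probe, 5 of the genes have probes that differ in sequence there, and 1 Cox5b probe is placed on chromosome 15 by the array files, the other being on chromosome 1, so the pairs are a description and carry no test. Over the 28 genes with at least 2 probes above background, the probes spanned a median range of 0.16 in TIA1 KO and 0.40 in TIAR KO, and Atp5l, Uqcr10 and Uqcrh exceeded 1 in TIAR KO.

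**Figure D4:**
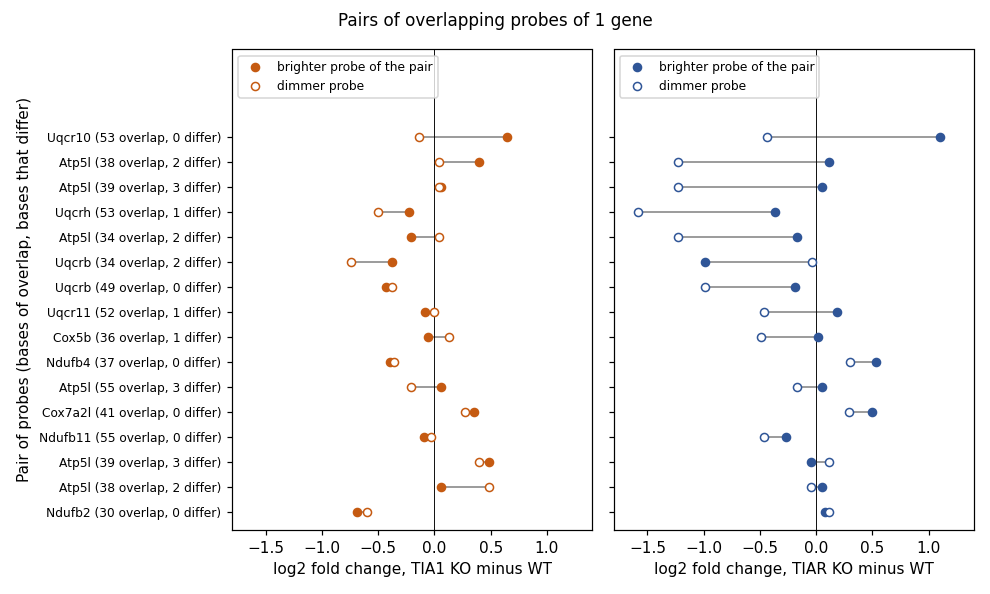
Log2 fold change against WT (x axis) of the brighter (filled) and dimmer (open) probe of each of 16 pairs of overlapping probes (y axis, with the bases of overlap and the bases that differ), in TIA1 KO (left) and TIAR KO (right). The lines joining the probes of a pair are short in TIA1 KO, with 1 over 0.5, and longer in TIAR KO, with 9 over 0.5.

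Complex IV reduces oxygen to water and is the complex with most tissue isoforms. Of its 18 genes 11 were well above background on all arrays, with median changes of -0.05 in TIA1 KO and 0.02 in TIAR KO. The widely expressed forms did not change past the test. Cox4i1 read 18.01 and 17.68 in WT, 17.76 and 17.75 in TIA1 KO, and 17.08 and 17.38 in TIAR KO (change -0.61 in TIAR KO, adjusted p = 0.158). Cox6a1 read 18.44 and 18.76, 18.32 and 18.51, and 18.61 and 18.54. Cox6b1, which helps to join the dimer of the complex, read 13.96 and 13.81, 13.78 and 13.19, and 13.66 and 13.42. Of these 3, Cox4i1 in TIAR KO had the largest change.

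Cox7a2, the widely expressed partner of Cox7a1, read 14.35 and 15.19 in WT, 14.98 and 15.15 in TIA1 KO, and 14.44 and 14.63 in TIAR KO. Cox7a2l, known for its part in joining complexes III and IV into supercomplexes, read 16.07 and 16.16, 16.43 and 16.50, and 16.55 and 16.68. Its changes of 0.35 and 0.50 had the same sign in both knockouts without passing the test (adjusted p = 0.216 and 0.130). Cox7b read 16.44 and 16.52, 16.25 and 16.45, and 16.57 and 16.58, and Cox8a read 17.88 and 17.78, 17.83 and 17.84, and 18.26 and 18.03. The largest change of these 2 genes from WT was 0.31, for Cox8a in TIAR KO. Cox6c read 16.09 and 16.15 in WT, 16.23 and 16.41 in TIA1 KO, and 15.95 and 14.22 in TIAR KO, so that its change of -1.04 in TIAR KO (adjusted p = 0.391) rested on replicate 2.

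The changes that passed the test in complex IV were in muscle isoforms with dim probes. Their first 30 bases are given because both calls rest on 1 probe each. The Cox6a2 probe lies at chr7:135349160-135349219 on the minus strand, and that of Cox7a1 is placed on the plus strand of chromosome 7 between 30970337 and 30970948 (mm9), a span of 612 bases for a probe of 60.
Cox7a1: acaacgtcctgtacagactgaccatgacgc
Cox6a2: agcaatcttcaaattggccttctgcacacc

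Cox7a1 read 8.02 and 7.96 in WT, 7.54 and 7.91 in TIA1 KO, and 9.37 and 9.52 in TIAR KO. The WT and TIAR KO arrays were well above background and the TIA1 KO arrays were not. It rose 2.75-fold in TIAR KO over WT (log2 change 1.46 ± 0.15 SE, adjusted p = 0.00525), and this call was kept under all 13 alternatives, with changes from 1.37 to 2.09. Against TIA1 KO it was 2.77-fold higher, the dim arrays being counted at the lowest signal rated well above background where that was higher (fitted change 1.72, adjusted p = 0.0361). Spots brighter than that lowest signal can still be unrated, as Cox4i2 was at 8.23 on TIA1 KO replicate 2. The count is therefore no firm lower limit. That second call was lost without TIAR KO replicate 1 (1.80, adjusted p = 0.313) and without replicate 2 (1.65, 0.342), where no probe of the array was called.

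Cox6a2 read 8.33 and 8.50 in WT, 6.51 and 6.87 in TIA1 KO, and 7.59 and 7.58 in TIAR KO, and was not well above background on the TIA1 KO arrays or on TIAR KO replicate 1. Counted as for Cox7a1, it was 1.94-fold lower in TIA1 KO than in WT, which is no firm limit (fitted change -1.72, adjusted p = 0.0355). It was not called with replicate number as a block (-1.72, adjusted p = 0.0699). With the processed signal the change was -0.91, under 2-fold (adjusted p = 0.431). Without WT replicate 1 (-1.81) and without WT replicate 2 (-1.64) no probe of the array was called in this comparison. In TIAR KO the change of -0.83 had an adjusted p of 0.0330 and stayed under 2-fold. The lowest signal rated well above background was 8.05 on TIA1 KO replicate 1, higher than on the other arrays, where it ranged from 5.78 to 7.22.

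Of 10 striated muscle markers 6 (Actc1, Ckm, Mb, Myh1, Myh6 and Myog) were not well above background on any array. Acta1, skeletal muscle actin, was the brightest by mean and rose in both knockouts, from 7.71 and 7.64 in WT to 10.56 and 10.38 in TIA1 KO and 11.74 and 11.25 in TIAR KO. Tnnt2, cardiac troponin T, read 11.62 and 10.03 in WT, 7.26 and 7.72 in TIA1 KO, and 10.20 and 11.20 in TIAR KO. It was called higher in TIAR KO than in TIA1 KO. Myh7 read lower on every knockout array: 7.85 and 8.06 in WT, 6.81 and 7.05 in TIA1 KO, and 7.54 and 7.50 in TIAR KO. Not well above background in TIA1 KO, it was 1.33-fold lower there when counted as for Cox7a1, without passing the limma test (adjusted p = 0.0740). Its change in TIAR KO was -0.43 (adjusted p = 0.198). The log2 of the summed signal of the 10 markers was 12.12 and 11.17 in WT, 11.37 and 11.32 in TIA1 KO, and 12.46 and 12.51 in TIAR KO. The part of these muscle genes in the Cox7a1 and Cox6a2 results was not tested.

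The remaining isoforms were at or near background. Cox4i2, the form tied to low oxygen and lung, read 8.40 and 8.38 in WT, 7.57 and 8.23 in TIA1 KO, and 8.25 and 8.74 in TIAR KO, and was well above background in WT and TIAR KO. Cox6b2, a testis isoform, read 8.84 and 7.95, 7.14 and 7.61, and 8.14 and 8.46, and was at least 1.48-fold lower in TIA1 KO without passing the test (adjusted p = 0.179). Cox7b2, Cox8b and Cox8c were not well above background on any array. Cox7b2 read between 6.58 and 6.96, Cox8b between 6.47 and 7.36, and Cox8c between 6.44 and 7.09.

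Complex V makes ATP. Its 17 genes were counted by name and include Atp5s and Atp5sl, which RefSeq lists as Dmac2l and Dmac2. Of the 17, 16 were well above background on all arrays and none was called in any comparison. The median change was -0.09 in TIA1 KO and 0.04 in TIAR KO. Atp5b, the catalytic beta subunit, read 17.80 and 16.37 in WT, 17.95 and 17.47 in TIA1 KO, and 18.11 and 17.63 in TIAR KO (changes 0.63 and 0.78, adjusted p = 0.463 and 0.467). Its WT arrays differed by 1.44, more than either change. Atp5f1, of the stalk that holds the catalytic head, read 15.43 and 15.42, 14.76 and 14.82, and 14.55 and 15.25 (change -0.63 in TIA1 KO, adjusted p = 0.103). Atp5j, of the same stalk, read 15.63 and 15.73, 15.22 and 15.38, and 15.15 and 14.98 (change -0.62 in TIAR KO, adjusted p = 0.0812). On these probes every knockout array lay below both WT arrays. A second Atp5f1 probe, well above background on all 6 arrays, gave -0.47 in TIA1 KO and -0.023 in TIAR KO.

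The membrane ring of ATP synthase is built from a protein encoded by 3 genes. Atp5g1 read 16.14 and 16.67 in WT, 16.68 and 16.57 in TIA1 KO, and 16.54 and 16.72 in TIAR KO. Atp5g2 read 18.05 and 18.09, 17.73 and 17.85, and 17.76 and 17.75. Atp5g3 read 15.56 and 16.33, 15.54 and 15.93, and 15.69 and 16.88. On its brightest probe Atp5g2 was lower on every knockout array than in WT, by 0.29 and 0.32, without passing the test (adjusted p = 0.283 and 0.299), while its second probe gave 0.033 in TIA1 KO, and the groups overlapped for the other 2. Atp5s read 8.55 and 8.93 in WT, 7.13 and 8.41 in TIA1 KO, and 8.86 and 8.62 in TIAR KO. It was not well above background on TIA1 KO replicate 1, and it did not pass the test in TIA1 KO (adjusted p = 0.261). The fit without TIA1 KO replicate 2 sets WT against that 1 array, on which Atp5s was not well above background, so no fold is given.

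The 13 subunits encoded by mitochondrial DNA, which are transcribed in the mitochondrion and not in the nucleus, were all on the array, 12 of them well above background on all arrays. None was called in any comparison, and the median change of the 12 was 0.11 in TIA1 KO and 0.21 in TIAR KO. ND5, a proton-pumping subunit of complex I, read 14.16 and 14.20 in WT, 14.37 and 14.19 in TIA1 KO, and 14.94 and 14.88 in TIAR KO (change 0.73, adjusted p = 0.0418, under 2-fold). ND4L read 15.31 and 15.45, 15.60 and 15.59, and 16.48 and 16.12 (change 0.92, adjusted p = 0.0451, under 2-fold). ND6, the one subunit read from the light strand, was the gene not above background throughout, with 9.01 and 9.08 in WT and 8.26 and 8.43 in TIAR KO (change -0.70, adjusted p = 0.0567). The ND3 probe is placed by the array files on chromosome 1 and so may read a nuclear copy.

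Of 39 listed assembly factors, which build the complexes without staying in them, 28 were on the array and none was called in any comparison, with a median of -0.14 in TIA1 KO and -0.13 in TIAR KO over the 23 above background, each read from its brightest probe. A dimmer probe of Cox16 was called higher in TIAR KO (2.21, adjusted p = 0.00267), where its brightest gave 0.19. The dimmer probe is placed at chr12:82460078-82460137 and the brightest at chr12:82581919-82581978 (mm9). Whether both read the same transcript was not tested. The 16 tricarboxylic acid cycle enzymes and mitochondrial mass markers, among them citrate synthase and the Vdac pores, gave no call either and medians of 0.02 and 0.04. Of the 14 electron carriers, coenzyme Q enzymes and the ATP synthase inhibitor, none was called in TIA1 KO and 1 was lower in TIAR KO. That gene was Coq5, a methyltransferase of coenzyme Q synthesis, which read 11.17 and 10.81 in WT, 9.96 and 10.14 in TIA1 KO, and 9.91 and 9.98 in TIAR KO (change -1.04, adjusted p = 0.0284). The Coq5 call was lost without WT replicate 1 (-0.86, adjusted p = 0.0929) and without either TIAR KO array (-1.01 and -1.07, adjusted p = 0.126 and 0.116). It was also lost with the processed signal (-1.06, 0.138), and it fell under 2-fold with quantile normalization without loess (-0.98), the deposited log2 table (-0.98) and the mean of all probes (-0.99). Coq2, which joins the ring and the tail of coenzyme Q, read 13.38 and 13.43, 12.48 and 12.45, and 13.55 and 13.68. It was 2.23-fold higher in TIAR KO than in TIA1 KO (adjusted p = 0.0449). Coq2 was not called without TIAR KO replicate 1 (1.22, adjusted p = 0.317) or without replicate 2 (1.09, 0.347), where no probe was. With similar changes it also missed the threshold with the normexp offset of 16 (1.15, adjusted p = 0.0724), without loess (1.19, 0.0527), with the deposited log2 table (1.16, 0.0664), with the processed signal (1.22, 0.0695) and with replicate number as a block (1.15, 0.152). The median of the 12 above background was -0.48 in TIA1 KO and -0.34 in TIAR KO.

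Of 12 regulators of mitochondrial biogenesis 1 was called. Ppargc1a, the coactivator PGC-1alpha, read 6.66 and 6.51 in WT, 8.55 and 7.99 in TIA1 KO, and 8.37 and 8.32 in TIAR KO, and was well above background on the TIAR KO arrays only. Counted as for Cox7a1, it was 2.75-fold higher in TIAR KO than in WT, which is no firm lower limit. The fitted change was 1.76 (limma adjusted p = 0.00275), a call kept under all 13 alternatives. Their fitted changes ran from 1.05 (mean of all probes) to 4.19 (processed signal). These are against WT arrays not above background, so they do not give the size of the rise. In TIA1 KO no array was rated above background, as in WT, so no fold is given. The limma adjusted p was 0.0531 there, between arrays that were not above background. Fits without 1 TIA1 KO array set a single such array against WT, with the spread from WT alone, so they decide nothing about TIA1 KO. A second Ppargc1a probe was not above background on any array. Nrf1 and Gabpa, the factors classically tied to respiratory chain promoters, gave -0.46 and -0.64 in TIA1 KO and -1.10 and -0.64 in TIAR KO, with no call on their brightest probes, while a dimmer Gabpa probe was called lower in TIA1 KO (-1.24, adjusted p = 0.0405). Over the 10 regulators above background the median was -0.23 in TIA1 KO and -0.27 in TIAR KO.

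The promoters of the genes were searched for the short cores of the motifs those factors are named for, in RefSeq windows from 250 bases before to 50 after each start (GRCm38.p6), on both strands. All 85 genes matched the RefSeq table and 69 had a promoter window. The NRF-1 core GCATGCGC stood in 10 of the 69 (14.5%) and in 3.05% of 27025 genes with a window. The ETS core CCGGAAG, which GABP binds, stood in 16 (23.2%) against 9.93%, and the YY1 core AAGATGGC in 11 (15.9%) against 3.19%. Of the other cores searched, the E-box CACGTG stood in 10.1% against 8.09%, the TATA box TATAAA in 10.1% against 15.7%, and the hypoxia response core ACGTG, which lies within the E-box letters, in 27.5% against 21.8%. Sdhb holds both the first and the second, and Uqcrh the second, as shown with the core in capitals in windows at chr4:140961206-140961235, chr4:140961266-140961295 and, on the minus strand, chr4:116075062-116075091 (GRCm38.p6).
Sdhb, NRF-1 core: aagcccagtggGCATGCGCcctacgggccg
Sdhb, ETS core: gctcggagaaaCCGGAAGcggccttccact
Uqcrh, ETS core: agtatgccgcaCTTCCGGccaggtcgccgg

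None of the NRF-1, ETS and YY1 cores stood in the windows of Ndufv2, Ndufv3 or Cox7a1, the hypoxia core stood in those of Ndufv3 and Cox7a1, and Cox6a2 had no window. A match is a run of letters and not a bound site, and the absence of one says only that these letters are not in the window.

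Markers of other cell types also differed between the lines. Of 5 epithelial markers 2 were called higher in TIA1 KO and 3 in TIAR KO, with Krt8 higher in both, and the log2 summed signal was 12.35 and 12.43 in WT, 13.37 and 13.44 in TIA1 KO, and 13.04 and 12.93 in TIAR KO, with Krt19 brightest. Of 10 fibroblast markers 6 were called higher in TIA1 KO and 8 in TIAR KO, and their log2 summed signal rose from 19.13 and 19.21 in WT to 20.41 and 20.39 in TIA1 KO and 20.43 and 20.46 in TIAR KO, with S100a4 brightest. Of 5 leukocyte markers on the array Ptprc and Emr1 were not above background anywhere, Aif1 was called lower in both knockouts, and Cd68 was brightest (log2 sums 11.58 and 11.17, 11.13 and 10.93, and 12.05 and 12.01). Cd68 changed by -0.34 in TIA1 KO and by 1.13 in TIAR KO, neither past the limma test (adjusted p = 0.462 and 0.0728). It was called higher in TIAR KO than in TIA1 KO (1.48, adjusted p = 0.0268). Of 4 endothelial markers none was called on its brightest probe (log2 sums 11.47 and 11.59, 11.65 and 11.67, and 11.72 and 11.88, with Kdr brightest and Cdh5 not above background). A dimmer Kdr probe was called higher in TIAR KO than in WT, 2.32-fold when counted as for Cox7a1 (adjusted p = 0.00695). Of 5 male germ cell markers Prm1, the brightest, was called higher in TIAR KO, while Acrv1, Cyct and Ddx4 were not above background on any array (9.39 and 9.57, 10.02 and 9.90, and 9.66 and 9.82). The part of these differences in the respiratory chain values was not tested.

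Gapdh, a glycolytic enzyme often used as a reference, read 18.55 and 18.66 in WT, 18.47 and 18.66 in TIA1 KO, and 18.65 and 18.74 in TIAR KO, with changes of -0.04 and 0.09. This brightest probe is placed on chromosome 7 by the array files, and most other Gapdh probes on chromosome 6. The other probes changed by -0.39 to 0.10 in TIA1 KO and by -0.29 to 0.03 in TIAR KO, and none was called.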

How the data were processed

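The authors deposited, per the file headers, 1 scanner file per array made with Agilent Feature Extraction, with the mean and background intensity of each spot and quality flags, and a table of normalized log2 values, which per their methods came from normexp with an offset of 50, loess and quantile normalization. Those steps were repeated from the intensities (limma 3.58.1, R 4.3.3): normexp, log2, 1 pass of cyclic loess with controls at weight 0, and quantile normalization. The deposited log2 table (correlation 0.998 to 1.000 with these values per array) was an alternative. Outlier spots were dropped (176 to 291 per array), no spot was saturated, and spots of a probe were averaged. A probe was well above background where at least 50% of its spots were so rated. The array number limits precision, and 16021 to 26295 probes were above background per array.

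Each comparison was fitted with lmFit and eBayes over all probes of its own 4 arrays. A gene was read from its brightest probe over the 6 arrays. Genes named were those called (up to 10 per comparison), the 2 with the largest change per complex and knockout among genes rated above background on each array of the group with the higher mean, Sdha to Sdhd, a list of isoform genes, Tia1, Tial1 and Gapdh. Lists covered mitochondrial DNA-encoded subunits, assembly factors, electron carriers, biogenesis regulators, mass markers and cell type markers. Members and lists were chosen with earlier results of these data known. Alternatives changed background correction, scaling, values, filter, samples fitted, replicate block, probe choice and arrays, 1 at a time except with the scanner's processed signal and the common array median. The fit was run on simulated data with changes larger than any called among the respiratory chain genes, so that run does not test changes of the sizes reported here.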

Additional observations from a re-analysis of the deposited data

Results flagged for a closer look

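Among the 42 genes chosen by the naming rule, limma called 3 between the knockouts. The rule takes in genes called in each comparison, this one included, so 3 of 42 is a description and not a test. Of the 85 members 2 were called higher in TIAR KO than in TIA1 KO, where 2.03% of all names were. Cox7a1 was 2.77-fold higher in TIAR KO than in TIA1 KO by the count for dim arrays, which is no firm lower limit. Neither TIA1 KO array was well above background (fitted difference 1.72 on the log2 scale, with 1.46 against WT in TIAR KO). Ndufv2 was higher by 1.43, with changes from WT of 1.13 in TIAR KO and -0.30 in TIA1 KO. Coq2 was higher by 1.15, with 0.21 and -0.94 in the same order. Both TIAR KO arrays lay above both TIA1 KO arrays in all 3, which restates the call and adds no support to it. Without either TIAR KO array and with replicate number as a block no probe of the array was called between the knockouts, so these fits do not bear on the 3 genes. With the processed signal their changes were 2.91, 1.29 and 1.22, with adjusted p = 0.0695, 0.0800 and 0.0695 in limma. Since TIA1 KO alone came from its slide row, a difference of row cannot be told apart from this one.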

How the results depend on the processing

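Each choice was changed alone, except that the processed signal replaced the background correction and both normalizations together, and the common array median replaced both normalizations. Under the normexp offset of 16, quantile normalization without loess, the deposited log2 table, the stricter filter and the joint fit of 3 groups the counts and medians kept to the reported ones, except for 1 gene called lower in TIAR KO with the offset and a complex I median of -0.14 there with the deposited table. Among named genes, these settings ended the Coq2 call between the knockouts (offset, no loess, deposited table) and the Coq5 call in TIAR KO (no loess, deposited table). With the processed signal at the 75th percentile, where the all-probe median was 1.98 in TIA1 KO and -0.04 in TIAR KO, 0 genes were lower in TIA1 KO, 1 was higher and 1 lower in TIAR KO, and 0 were higher in TIAR KO than in TIA1 KO. The medians were then -0.32, -0.42, -0.31 and -0.27 for complexes I, II, III and V and -0.28 for all genes in TIA1 KO, -0.15, -0.021, -0.18 and -0.24 for I, II, IV and V and -0.17 for all in TIAR KO, and 0.069 and 0.14 for I and IV between the knockouts. With a common array median, where the all-probe medians were -0.67, -0.02 and 0.63, 71 of the 85 genes were lower in TIA1 KO, 1 was higher and 4 lower in TIAR KO, and 27 were higher in TIAR KO than in TIA1 KO. Over all names 30.2% were called lower in TIA1 KO and 5.87% in TIAR KO there. Over all probes 1424 of 55678 were called higher in TIAR KO, and 7242 of 55681 were higher in TIAR KO than in TIA1 KO. Medians of complexes I to V and of all genes were then -1.68, -1.82, -1.64, -1.54, -1.63 and -1.65 in TIA1 KO, -0.59, -0.10, -0.55, -0.40, -0.41 and -0.47 in TIAR KO, and 1.02, 1.74, 1.26, 1.21, 1.19 and 1.18 between the knockouts. Atp5g1, Cox6c, Cox7a2, Cox7a2l and Cox8a turned negative in TIA1 KO there (-1.32, -1.34, -1.29, -1.19 and -1.44). Averaging all probes of a gene gave -0.17, 0.078 and -0.092 for complexes I, II and V and -0.11 for all in TIAR KO, and 0.36 for complex II between the knockouts. With the replicate block 0 genes were lower in TIA1 KO and 0 were higher in TIAR KO than in TIA1 KO, and over all probes the calls went from 1959 to 523 in TIA1 KO, from 3218 to 3374 in TIAR KO and from 1845 to 0 between the knockouts. Deviations of same-numbered arrays correlated at 0.078, 0.029 and -0.072 over all probes and at 0.28, 0.018 and -0.074 over probes above background on all arrays (WT with TIA1 KO, WT with TIAR KO, and the knockouts). The labels name nothing that a number shares, so the samples were taken as unpaired. The cause of these changes was not tested.

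Leaving out 1 array at a time, in TIA1 KO 0 genes were called higher and 0 to 2 lower, and the medians ran from -0.17 to -0.088 for complex I, -0.41 to -0.13 for complex II, -0.15 to 0.066 for complex III, -0.086 to -0.027 for complex IV, -0.22 to 0.01 for complex V and -0.14 to -0.087 for all genes. In TIAR KO 2 to 4 genes were called higher and 0 to 4 lower, and the medians ran from -0.14 to -0.0033 for complex I, -0.089 to 0.52 for complex II, -0.12 to 0.088 for complex III, -0.18 to 0.14 for complex IV, -0.12 to 0.037 for complex V and -0.11 to 0.041 for all genes. In TIAR KO against TIA1 KO 0 to 6 genes were called higher and 0 lower, and the medians ran from -0.11 to 0.11 for complex I, 0.53 to 0.91 for complex II, 0.055 to 0.20 for complex III, 0.020 to 0.13 for complex IV, 0.024 to 0.076 for complex V and -0.048 to 0.12 for all genes.

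Over all probes, limma called 0 in TIA1 KO without either WT array, and 0 between the knockouts without either TIAR KO array, but 10724 and 10176 without TIA1 KO replicate 2. The processed signal gave 0 calls in TIA1 KO and, between the knockouts, 1509 with 125 higher. With a common array median 1876 of 15801 calls were higher in TIA1 KO (1216 of 1959 as reported), 1424 of 4139 in TIAR KO (1891 of 3218) and 7242 of 8307 between the knockouts (938 of 1845). Probes called over the whole array numbered 1309 in TIA1 KO and 1278 between the knockouts with the deposited table, 2874 and 2870 with the stricter filter, and 3931 and 3167 with 3 groups fitted together. Signal close to background limits the isoforms Cox4i2, Cox6a2, Cox6b2, Cox7a1, Cox7b2, Cox8b and Cox8c.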
